A study of Mus musculus with 24 samples.

Results

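Gene expression was compared between 2nd relapse and 1st relapse KP tumours, using the 3 libraries of each group, 6 of the 24 libraries in the series and 6 of its 15 KP libraries. All genes with enough signal to test were included, 11193 of the 36040 in the KP table. KP is a genetically engineered mouse lung cancer model whose alleles include p53 flox/flox, and every group described here shares the same genotype. Tumour cells were injected into mice, tumours were taken on day 15, and live CD45-negative cells were sorted before RNA was isolated. The relapsed groups are tumours that relapsed after immune checkpoint blockade (ICB), and parental and late relapse KP tumours, 3 libraries each, are given beside them where they help to place a value. The other 3 KP libraries are labelled Chronic IFNG KP, with the exposure itself not given in the sources used here, and they entered the filter, the fit and the principal components without being compared. The treatment label of every library is "None". The sources used here do not give the strain, sex or age of the mice, the drugs used, how the relapsed cells were obtained or how the 1st, 2nd and late relapses follow from each other. The submitters call the 3 libraries of a group biological replicates without stating that they came from separate mice, so p-values measure the spread between these samples.

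Immune checkpoint blockade releases T cells that recognise tumour peptides on MHC class I molecules, and interferon gamma (IFNG) from those cells acts on tumour cells through its receptor, JAK kinases and STAT factors to raise antigen presentation. KP lung tumours are known for a range of states, from lung-like epithelium through gut-like or stomach-like programmes to mesenchymal states in which cells make collagen and other matrix. Tumour cells also differ in how they use glucose and make sterols, and the transcription factors HIF1A and SREBF2 are the known regulators of many genes of those pathways.

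Expression was deposited as variance-stabilised log2 values, from which normalised counts were calculated back. Estimated depth was 13.7 to 21.7 M reads in the 1st relapse libraries and 21.6 to 25.7 M reads in the 2nd relapse libraries, with 22671 to 29289 and 29856 to 30573 genes detected. Differences are 2nd minus 1st relapse on the deposited log2 scale, with their standard error (SE), and called genes are those with an adjusted p under 0.05 in limma. Folds are ratios of mean normalised counts. Summed levels of a list are given in normalised CPM (counts per 1 M normalised counts). Of the marker lists for other cells, T and NK cell genes summed to 2.2 to 3.64 CPM in 1st and 5.4 to 5.55 CPM in 2nd relapse, B and plasma cell genes to 1.92 to 2.16 and 1.06 to 1.9 CPM, and pan-leukocyte genes to 25.4 to 42.8 and 25.7 to 29.5 CPM. The floxed p53 exons cannot be checked in values given per gene. The lung lineage factor Nkx2-1 and the surfactant gene Sftpb were very low in both groups. Nkx2-1 had 1.28, 1.94 and 0 normalised counts in 1st and 5, 3.21 and 9.42 in 2nd relapse, and Sftpb had 0, 0 and 0 and 4, 6.9 and 4.83. Other members of the lung list, such as Aqp5 and Foxa2, were expressed. The whole list summed to 305 to 329 CPM in 1st and 252 to 260 CPM in 2nd relapse. Epithelial keratins were abundant, with 51720 and 89650 mean normalised counts of Krt8.

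The groups differed widely. Of 11193 genes tested, 6967 (62.2%) were called, 3835 (34.3%) higher and 3132 (28.0%) lower in 2nd relapse tumours, with a median difference of 0.023 over all tested genes. Differences of at least 1 log2 unit were seen for 583 called genes, 243 higher and 340 lower, and differences of at least 2 log2 units for 28 higher and 51 lower. All 3 values of one group lay above those of the other for 7623 genes (68.1%). On the first principal component, with 49.0% of the variance of the 15 KP libraries, the 2nd relapse libraries lay at 35.29 to 37.18 and the 1st relapse libraries at -10.71 to -6.98. Comparisons with parental tumours share the relapse libraries with this one: 5697 genes (50.9%) were called between 1st relapse and parental, and 7367 (65.8%) between 2nd relapse and parental.

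**Figure D1:**
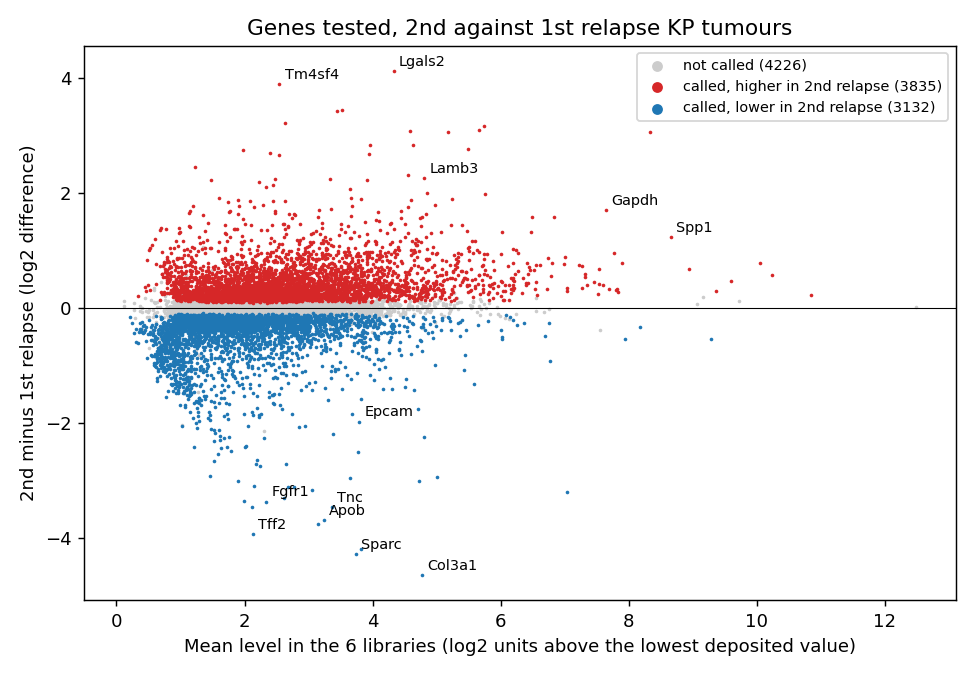
Each point is one of the 11193 tested genes, with its mean level over the 6 libraries on the x axis (log2 units above the lowest deposited value) and the 2nd minus 1st relapse log2 difference on the y axis. Red points (3835) were called higher and blue points (3132) lower in 2nd relapse, and the lowest point is Col3a1 at -4.65.

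Fibrillar collagens and their partners were far lower in 2nd than in 1st relapse tumours, and Col3a1 had the lowest log2 difference of all tested genes. Of 28 tested collagen and collagen crosslinking genes, 17 fell and 5 rose, with a median of -1.14, against 28.0% lower, 34.3% higher and 0.023 over all genes. Col3a1, the chain of type III collagen, had 35270, 44140 and 38130 normalised counts in the 1st relapse libraries and 809, 1220 and 1161 in the 2nd relapse libraries. Its mean was 36.8-fold lower, a log2 difference of -4.65 (SE 0.52, limma adjusted p = 2.16e-06). Col1a1 had 7700, 11180 and 8068 against 217, 256 and 246 and Col1a2 13710, 22390 and 15450 against 292, 598 and 523, which made them 37.5-fold and 36.5-fold lower. These chains together form type I collagen, and in each of them every 2nd relapse library lay far below every 1st relapse library. Sparc, a collagen-binding matricellular protein, fell from 14990, 19110 and 15340 to 344, 404 and 419 normalised counts (42.4-fold, adjusted p = 2.46e-12). The fibril-associated Col12a1 (21.2-fold lower), the type V chains Col5a2 (23.8-fold) and Col5a1 (7.77-fold), and the crosslinking enzyme Lox (43.9-fold) fell too. The basement membrane chains Col4a1 (10240 mean counts in 1st, 11620 in 2nd relapse) and Col4a2 (4457 and 4697) were not called, and their log2 differences of 0.17 and 0.066 turned to -0.199 and -0.125 under quantile normalisation, where Col4a1 was called lower. Parental libraries held 9011, 10650 and 14320 counts of Col3a1 and late relapse libraries 5780, 7928 and 35510, where replicate 3 stood far above the others. Each of these was above all 2nd relapse values.

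The 200 bases upstream of the annotated starts of Col3a1 and Col1a2 are shown because these genes are among those with the lowest log2 differences. They come from the RefSeq promoter table on GRCm38.p6 and run 5′ to 3′ on the gene's strand, at chr1:45311338-45311537 (plus strand) for Col3a1 and chr6:4505418-4505617 (plus strand) for Col1a2. Capitals mark matches to TATAAA and to CCAAT, searched on both strands. Col3a1 holds TATAAA at bases 117 to 112 before the start, and Col1a2 holds CCAAT at bases 109 to 105 before it.
Col3a1: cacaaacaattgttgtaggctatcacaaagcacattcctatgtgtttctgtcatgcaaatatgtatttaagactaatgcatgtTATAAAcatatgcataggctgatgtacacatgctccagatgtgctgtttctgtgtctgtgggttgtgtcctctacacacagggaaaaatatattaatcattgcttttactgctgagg
Col1a2: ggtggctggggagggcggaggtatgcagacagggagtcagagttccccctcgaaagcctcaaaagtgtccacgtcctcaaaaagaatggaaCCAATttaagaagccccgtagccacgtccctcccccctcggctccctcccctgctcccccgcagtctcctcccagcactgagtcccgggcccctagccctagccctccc
CCAAT was found in 5 of the 19 collagen-list promoters in the table (26.3%), against 33.6% of the 8540 promoters of tested genes, and TATAAA in 1 of 19 (5.26%) against 4.52%.

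Markers of fibroblasts, the host cells that a CD45-negative sort can hold, moved with the collagens. Of 12 tested fibroblast markers 11 fell and 0 rose, with a median of -1.82, and the list summed to 3051 to 4292 CPM in 1st and 95.3 to 126 CPM in 2nd relapse libraries, against 726 to 1125 CPM in parental ones and 621.8 to 2670 CPM in late relapse ones, where 1 library stood apart. Col1a1, Col1a2 and Col3a1 belong to both lists. Their high counts are part of the summed level, so that sum is not a separate measure from the collagen values. Dcn, a small proteoglycan of fibroblasts, had 1313, 2112 and 2098 normalised counts in 1st and 26.6, 46 and 54 in 2nd relapse. Pdgfra, a growth factor receptor of fibroblasts, had 669, 778 and 682 and 15.4, 46.3 and 57.5, and Lum 314, 422 and 404 and 9.85, 16.2 and 11.8. In these genes, too, the groups did not overlap, and of the 14 markers listed none was at 0 in all 6 libraries. Pericyte and smooth muscle genes summed to 36.6 to 76 CPM in 1st and 15.2 to 20.2 CPM in 2nd relapse. Of 4 tested members 3 fell and 1 rose, Cspg4, from 73.5, 80.3 and 74 to 317, 252 and 210 normalised counts. Cspg4 reached the level for testing only in the 2nd relapse group (mean 259.7), so the filter itself favours its rise. In bulk samples fewer cells of a type and less RNA per cell cannot be told apart, and the part of host fibroblasts in the collagen values was not tested. Parental libraries, with 726 to 1125 CPM of these markers, held 17040, 18180 and 17620 normalised counts of Sparc, which is not among them. Their Col1a1 counts of 1440, 1425 and 2635 are part of that sum.

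Other matrix genes fell and rose side by side. Of 35 tested laminins, matricellular and other matrix genes, 21 fell and 10 rose (median -0.70). Tnc, an adhesion-modulating glycoprotein, went from 7760, 12110 and 8514 to 318, 428 and 482 normalised counts (23.1-fold lower). Fbn1, the microfibril protein fibrillin, went from 4848, 5039 and 5196 to 66.8, 206 and 152 (35.5-fold lower), and Thbs1, a thrombospondin, from 23290, 29480 and 22720 to 2479, 3042 and 2825 (9.04-fold lower). Postn, periostin, which is also one of the fibroblast markers, was 26.7-fold lower. Each of these was far lower in all 3 libraries of the 2nd relapse. Fibroblast markers as a list were lower in the same libraries, and their part in these matrix values was not tested. The laminin chains Lamb3 and Lama3 of epithelial basement membranes moved the other way. Lamb3 rose from 3469, 2774 and 3202 to 15540, 18410 and 17580 normalised counts (5.46-fold, log2 difference 2.26, SE 0.13, adjusted p = 3.27e-09). Lama3 rose from 2979, 2736 and 3271 to 6547, 7844 and 6133 (2.28-fold). Neither chain overlapped between groups, and parental means were 1060 counts for Lamb3 and 174 for Lama3. Spp1, osteopontin, rose from 74260, 77750 and 73970 to 189200, 189700 and 157500 counts, Has3, a hyaluronan synthase, was 7.17-fold higher, and the small proteoglycan Bgn 4.78-fold higher. Bgn had its highest level in parental tumours, with 15340, 13170 and 15450 counts. Fn1, fibronectin, had 91700, 98900 and 89980 and 79050, 85050 and 60720 counts (log2 difference -0.33), a call lost without 1st relapse replicate 2 (-0.29) or 2nd relapse replicate 3 (-0.187).

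**Figure D2:**
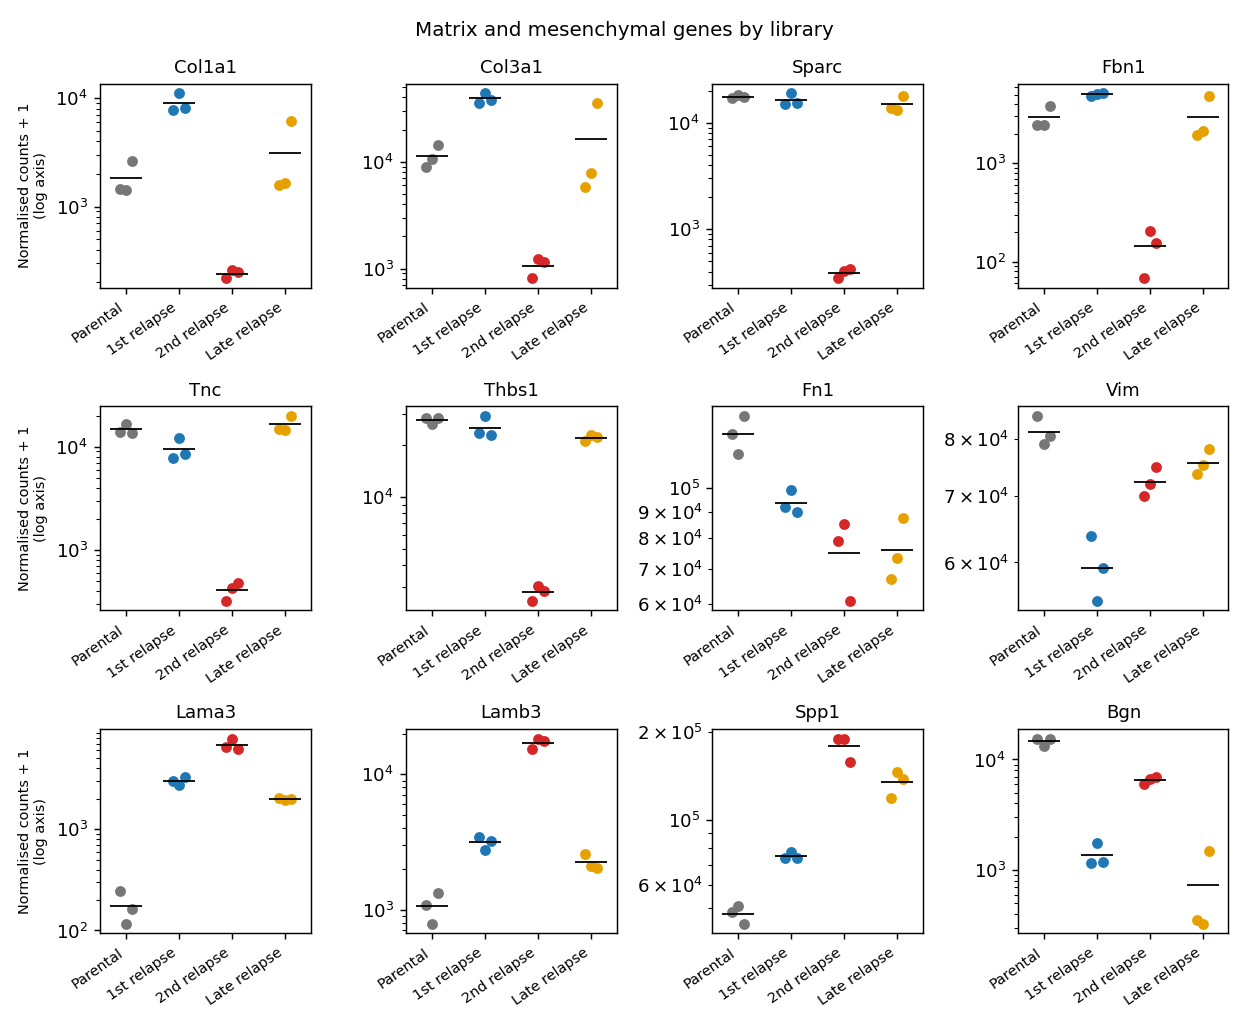
Normalised counts plus 1 (log y axis, scaled per panel) of 12 matrix and mesenchymal genes in each library of 4 groups, with the group mean as a line. Collagens, Sparc, Fbn1, Tnc and Thbs1 have their lowest points in the 2nd relapse libraries, while the laminin chains Lama3 and Lamb3 and osteopontin, Spp1, have their highest points there.

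Matrix proteases and inhibitors were mixed: 10 of 22 fell and 6 rose (median -0.17), with 72.7% called against 62.2% over all genes. Timp1, an inhibitor of metalloproteinases, was 5.64-fold lower, the gelatinase Mmp2 32.3-fold and Mmp19 14.1-fold lower, and Plat, tissue plasminogen activator, 2.66-fold higher. Mmp2 counts were 457, 582 and 614 in the 1st and 12.8, 20.3 and 18.1 in the 2nd relapse libraries, and Plat counts 5405, 5488 and 5730 and 13760, 15270 and 15250. Neither gene overlapped between groups. Mmp2 is also made by fibroblasts, whose markers were lower in the same libraries, and their part in its values was not tested.

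Mesenchymal genes were lower in 2nd relapse tumours. Of 21 tested mesenchymal factors and markers 15 fell and 2 rose (median -0.73), against 28.0% lower and 34.3% higher over all genes. S100a4, a calcium-binding protein named for fibroblasts, fell from 6527, 6788 and 5943 to 1671, 1246 and 1346 normalised counts, and the actin gene Acta2 from 375, 920 and 438 to 26.2, 34.5 and 29.4. Twist1, a transcription factor of mesenchymal programmes, fell from 367, 443 and 373 to 3.01, 2.13 and 5.94. The factor Zeb1 fell by 0.47 log2 units, whereas Zeb2 (1416 and 1269 mean counts) was not called. Vim, vimentin, went against the list with 63780, 54840 and 59210 counts in 1st and 70060, 72040 and 74920 in 2nd relapse (log2 difference 0.29, adjusted p = 0.000605), although quantile normalisation turned its direction to -0.056. Itgb3, an integrin subunit, was 3.08-fold higher. The summed fibroblast markers, which include Col1a1, Col1a2 and Col3a1, were at 3051 to 4292 CPM in 1st and 95.3 to 126 CPM in 2nd relapse. These markers moved with the mesenchymal genes and with the receptors Ddr2 and Fgfr1 described next, and their part was not tested.

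Receptor tyrosine kinase genes moved in both directions. Of 29 tested receptors and ligands 13 rose and 14 fell (median 0.058, which quantile normalisation moved to -0.069). Fgfr1, a fibroblast growth factor receptor, went from 3644, 4755 and 4076 to 77.7, 42.9 and 62 normalised counts (68.3-fold lower, adjusted p = 1.17e-11), and Ddr2, a receptor for fibrillar collagen, from 2941, 3594 and 2879 to 17.6, 13 and 10.5 (229-fold lower). Axl, the receptor for GAS6, fell from 12630, 15110 and 12310 to 3642, 3382 and 3553. Parental tumours held 5483, 4575 and 6807 counts of Fgfr1 and 20460, 22420 and 20170 of Axl, so both were lower in 2nd relapse than in parental libraries as well. Erbb3, a partner of EGFR-family receptors, fell 3.63-fold, and Igf1r fell by 0.62 log2 units. Ligands that rose included the EGFR ligands Btc (1.27 log2 units), Areg (1.16), Tgfa (1.06) and Ereg (0.55), and the endothelial growth factors Vegfc (1.04) and Vegfa (0.96). Vegfa counts were 8314, 6861 and 8273 in 1st and 15110, 16650 and 15400 in 2nd relapse libraries.

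Downstream of these receptors, 13 of 23 MAPK output and feedback genes rose and 7 fell (median 0.30). The phosphatases that switch off ERK were among those that rose, with Dusp5 at 0.57 and Dusp7 at 0.53 log2 units, as were the feedback inhibitors Spry4 (0.52) and Spry2 (0.42). Etv1, an ETS factor, fell by 0.79. Myc rose from 1918, 1922 and 1911 to 2874, 2998 and 3052.

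TGF-beta and Wnt genes moved in both directions, as all tested genes did (34.3% higher and 28.0% lower). In the TGF-beta and BMP list 11 of 29 fell and 10 rose (median -0.011). The secreted TGF-beta target Tgfbi was 3.95-fold lower, the procollagen protease Bmp1 3.6-fold, the receptor Tgfbr2 2.78-fold and the co-receptor Tgfbr3 16.1-fold lower, while Tgfbr1 (0.50 log2 units) and Id2 (0.76) rose. Tgfbi counts were 4022, 5002 and 4264 in the 1st and 1418, 1099 and 848 in the 2nd relapse libraries. In the Wnt list 13 of 20 fell and 6 rose (median -0.49). Ctnnb1, beta-catenin, fell from 44330, 40780 and 44070 to 21600, 22440 and 23040 counts. The secreted inhibitor Sfrp1 (58-fold), the receptor Fzd2 (6.03-fold) and the ligand Wnt5a (3.07-fold) were lower, and Rnf43, an E3 ligase that removes Wnt receptors, was 3.98-fold higher. Sfrp1 reached the level for testing only in the 1st relapse group (mean 486.7), so the filter itself favours its fall. Whether fibroblasts, whose markers fell in the same libraries, had a part in these values was not tested.

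Much of the stomach-like and gut-like programme of the 1st relapse tumours was lower in the 2nd relapse. Of 28 tested gut, liver and stomach lineage genes 17 fell and 6 rose (median -0.42), and the list summed to 2876 to 3052 CPM in 1st, 1613 to 1642 in 2nd relapse and 444 to 622 in parental libraries. Tff2, a trefoil peptide of stomach mucus, went from 4329, 3914 and 4970 to 0, 9.49 and 6 normalised counts (log2 difference -3.94, SE 0.29, adjusted p = 2.7e-08). Tff1 went from 3110, 2684 and 3239 to 134, 87.2 and 104, and Agr2, which folds mucins, from 3167, 2844 and 3667 to 27.6, 62 and 69. Apob, the apolipoprotein of liver and gut lipoproteins, fell from 10100, 9793 and 7954 to 242, 312 and 322 (31.8-fold). None of these overlapped between groups, and the 2nd relapse means of Tff1 and Agr2 (108 and 52.9) lay below the parental means (181 and 75.1). Late relapse tumours held 1510 mean counts of Tff2 and 14760 of Apob. Mucosal secretion genes outside the list fell as well: Dmbt1, a mucin-like scavenger receptor, from 114400, 102500 and 127900 to 10660, 13500 and 11950, and Pigr, which carries antibodies across epithelia, from 3554, 2914 and 4579 to 15.4, 31 and 17.3. The stomach gastrokine Gkn2 (24.2-fold) and the mucins Muc4 (7.35-fold) and Muc1 (3.32-fold) were lower.

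Some regulators of that programme rose instead. The endoderm factors Foxa2 and Gata6 rose by 0.96 and 0.82 log2 units. Foxa2 counts were 339, 446 and 414 in the 1st and 1243, 1053 and 1269 in the 2nd relapse libraries. Sox9 (1051 and 1017 mean counts) and the brush border gene Vil1 (1742 and 2035) were not called. Muc5b, an airway mucin, was 9.05-fold higher and Anxa10, an annexin of stomach epithelium, 2.35-fold higher. In the lung list 6 of 10 tested genes fell and 3 rose (median -0.25), led by the water channel Aqp5, which went from 895, 1002 and 1011 to 154, 93.3 and 112 counts.

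Epithelial genes divided too. Of 37 tested junction, keratin and polarity genes 17 rose and 13 fell, with a median of 0.029 that quantile normalisation moved to -0.1. Epcam, the epithelial adhesion molecule, fell from 6826, 6779 and 8497 to 1473, 1650 and 1299 normalised counts (5-fold, adjusted p = 1.48e-07), and the apical membrane protein Prom1 from 8964, 9043 and 10540 to 795, 778 and 761. The surface protease St14 (14.3-fold) and the splicing regulator Esrp1 (7.76-fold) were lower. By contrast Cdh1, E-cadherin, rose from 9923, 9328 and 10920 to 15590, 17040 and 16750, and keratin Krt19 from 14300, 13000 and 17220 to 30250, 29630 and 31490. Krt8 (0.79 log2 units), Krt18 (0.68), Krt20 (1.46) and Krt23 (1.40) rose as well. Krt8 and Krt18, which pair in simple epithelia, thus stood higher where Epcam stood lower.

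**Figure D3:**
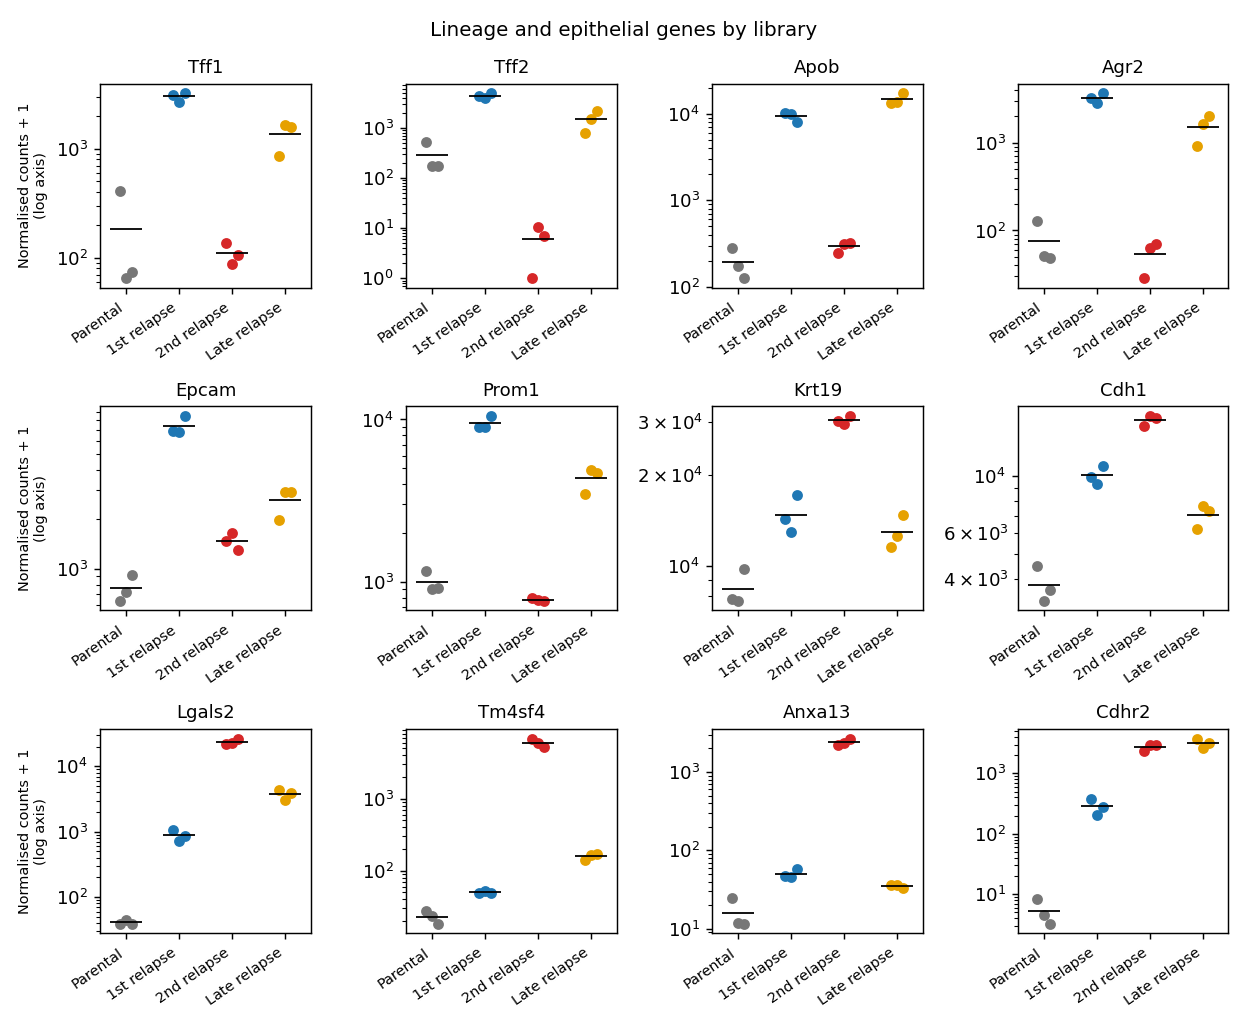
Normalised counts plus 1 (log y axis, scaled per panel) of 12 lineage and epithelial genes in each library of 4 groups, with the group mean as a line. Tff1, Tff2, Apob, Agr2, Epcam and Prom1 are high in the 1st relapse and low in the 2nd relapse libraries, Krt19 and Cdh1 are highest in the 2nd relapse, and Lgals2, Tm4sf4, Anxa13 and Cdhr2 are higher in the 2nd than in the 1st relapse.

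Several of the genes with the highest log2 differences were low in parental tumours. Lgals2, galectin-2, a sugar-binding lectin encoded at chr15:78850860-78855529, had 1061, 715 and 856 normalised counts in the 1st and 21700, 22830 and 26700 in the 2nd relapse libraries, a 27.1-fold difference (log2 4.13, SE 0.12, adjusted p = 7.15e-12). Parental libraries held 38.3, 43.4 and 37.7 counts. Tm4sf4, a transmembrane protein of gut and liver epithelium at chr3:57425314-57441677, had 48, 50.2 and 48.3 against 6818, 5859 and 5214 counts (122-fold), and Anxa13, an annexin of gut epithelium at chr15:58341471-58389244, 45.9, 44.2 and 57.6 against 2186, 2328 and 2666 (48.6-fold). In all 3 genes the groups were far apart, and late relapse means were 3790, 158 and 34.2, well below those of the 2nd relapse (23750, 5964 and 2393). Anxa13 reached the level for testing only in the 2nd relapse group, so the filter itself favours its rise. Cdhr2, a cadherin of brush border microvilli, rose from 370, 205 and 280 to 2334, 2990 and 2925, and Apoc2, the activator of lipoprotein lipase, from 312, 89.9 and 196 to 1924, 2473 and 2649. Both had late relapse means (3192 and 2272) near those of the 2nd relapse (2750 and 2349).

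Receptors and secreted proteins were also among these genes. Il5ra, the alpha chain of the interleukin-5 receptor, rose from 518, 576 and 446 to 9471, 10510 and 11200 normalised counts (20.3-fold). Il1rn, which blocks the interleukin-1 receptor, rose from 763, 750 and 975 to 5043, 6068 and 6403 (7.04-fold). Trf, the iron carrier transferrin, rose 4.34-fold and Pcdh7, a protocadherin, 5.97-fold. Prl2c3 and Prl2c2, placental proliferins, were 19.8-fold and 32.1-fold higher, but they are near-identical copies whose reads can be divided between them, so the value of each is uncertain. Mrc1, the mannose receptor, had 1853, 852 and 1151 counts in the 1st and 6239, 6999 and 7400 in the 2nd relapse libraries (5.35-fold). Mrc1 is also a macrophage marker, and the macrophage list summed to 66.3 to 111 CPM in 1st and 257 to 300 CPM in 2nd relapse, with most of it from Mrc1. The other macrophage markers were low: Cd68 had 73.3, 48.3 and 72.1 and 117, 90.1 and 96.7 counts, Csf1r 26.6, 33 and 29.8 and 30.2, 18.4 and 13.3, C1qa 30.8, 35.4 and 38.7 and 5.91, 5.16 and 5.8, and Lyz2 fell from 360, 313 and 223 to 36.1, 38.5 and 18.7. The part of macrophages in the Mrc1 values was not tested.

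Glycolysis genes rose almost throughout. Of 20 tested glycolysis and lactate export genes 19 rose and 0 fell (median 0.65), against 34.3% and 28.0% over all genes, and the list summed to 9527 to 10450 CPM in 1st, 15680 to 15940 in 2nd relapse and 11840 to 12070 in parental libraries. Gapdh rose from 33150, 29330 and 32150 to 106900, 104600 and 100700 normalised counts (3.3-fold, log2 1.71, SE 0.072, adjusted p = 1.43e-10). Slc2a1, the glucose importer GLUT1, rose from 3061, 2785 and 3512 to 9905, 10840 and 10130, and Slc16a3, the lactate exporter MCT4, from 2698, 1636 and 2379 to 8244, 8228 and 8057. In these genes no 2nd relapse library overlapped a 1st relapse library. Tpi1 (1.33 log2 units), Pgam1 (0.94), Hk2 (0.89) and Ldha (0.78), which act from glucose capture to lactate formation, were also higher. Pgk1 was the tested member that was not called, with 27050 and 26170 mean counts, but quantile normalisation called it lower, at -0.484. It lies on the X chromosome, whose genes were lower as a group, as described further on. Parental means were 53350 for Gapdh and 4104 for Slc2a1, between those of the relapse groups, and 299 for Slc16a3, below both.

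Hypoxia genes, some of which belong to the glycolysis list too, also rose. Of 26 tested hypoxia genes 18 rose and 5 fell (median 0.47). Ndrg1, a stress-response gene, rose from 2695, 2065 and 2761 to 14130, 14530 and 15190 normalised counts (5.83-fold, adjusted p = 4e-09). Ero1l, an oxidase of protein folding, rose from 4114, 3404 and 4521 to 13130, 14310 and 11690, and the peptide hormone gene Adm from 382, 328 and 436 to 1658, 1653 and 1680. The groups did not overlap in these 3 genes. Bnip3 (0.97 log2 units) and Bnip3l (0.88), receptors for the removal of mitochondria, rose, as did Hif1a (0.84). Car9, a carbonic anhydrase that HIF1A drives, fell by 0.49, Pfkfb4 by 0.95 and the matrix enzyme Lox by 2.18.

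Upstream sequences of 3 genes of these lists are printed because the genes rose and hold the core ACGTG of the hypoxia response element, in capitals. Each is 200 bases before the annotated start, from RefSeq on GRCm38.p6: Slc16a3 at chr11:120948867-120949066 (plus strand), Slc2a1 at chr4:119108545-119108744 (plus strand) and Bnip3 at chr7:138909507-138909706 (minus strand).
Slc16a3: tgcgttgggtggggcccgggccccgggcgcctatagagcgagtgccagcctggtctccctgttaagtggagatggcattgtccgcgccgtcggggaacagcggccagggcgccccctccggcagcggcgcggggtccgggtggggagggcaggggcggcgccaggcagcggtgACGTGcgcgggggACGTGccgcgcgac
Slc2a1: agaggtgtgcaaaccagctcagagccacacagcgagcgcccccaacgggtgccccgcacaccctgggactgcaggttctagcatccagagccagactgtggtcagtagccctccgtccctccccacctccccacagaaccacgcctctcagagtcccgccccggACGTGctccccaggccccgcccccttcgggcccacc
Bnip3: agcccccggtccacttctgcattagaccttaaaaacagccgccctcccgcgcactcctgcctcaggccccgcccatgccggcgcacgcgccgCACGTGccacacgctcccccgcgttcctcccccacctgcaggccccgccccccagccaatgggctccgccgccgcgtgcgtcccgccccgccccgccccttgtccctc
Slc16a3 holds ACGTG at bases 27 to 23 and 14 to 10 before its start, Slc2a1 at bases 36 to 32, and Bnip3 has overlapping matches on both strands at bases 108 to 103. On either strand ACGTG was found in 11 of 19 hypoxia-list promoters in the table (57.9%) and in 8 of 20 glycolysis-list promoters (40.0%), against 19.1% of the 8540 promoters of tested genes. A match is a description of the letters, not of binding.

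Sterol and fatty acid synthesis genes also rose together. Of 27 tested genes 23 rose and 0 fell (median 0.64), and the list summed to 3333 to 3782 CPM in 1st and 5310 to 6089 CPM in 2nd relapse libraries. Hmgcs1, which makes the precursor of mevalonate, rose from 3140, 2734 and 2820 to 7269, 7535 and 9085 normalised counts (log2 1.30, SE 0.072, adjusted p = 1.93e-09). Msmo1, a sterol demethylation enzyme, rose from 3038, 2112 and 2636 to 7217, 7246 and 7985, and the desaturase Scd2 from 16910, 14700 and 15280 to 37090, 39890 and 42720. Every 2nd relapse library lay above every 1st relapse library in these genes. The regulators of the pathway Srebf2 and Insig1 rose by 0.94 and 0.99 log2 units. Members not called were Acaca, Fasn, Acly and Nsdhl, of which Acaca, Fasn and Acly act in fatty acid synthesis. Quantile normalisation called Fasn and Acly lower, at -0.242 and -0.154, against log2 differences of 0.085 and 0.11 here.

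The upstream bases of Hmgcs1, Msmo1 and Idi1, genes of sterol synthesis that rose, are shown with CCAAT and the sterol element core TCACNCC in capitals. All are 200 bases before the annotated start on GRCm38.p6 from RefSeq: Hmgcs1 at chr13:119690151-119690350 (plus strand), Msmo1 at chr8:64733579-64733778 (minus strand) and Idi1 at chr13:8885406-8885605 (plus strand).
Hmgcs1: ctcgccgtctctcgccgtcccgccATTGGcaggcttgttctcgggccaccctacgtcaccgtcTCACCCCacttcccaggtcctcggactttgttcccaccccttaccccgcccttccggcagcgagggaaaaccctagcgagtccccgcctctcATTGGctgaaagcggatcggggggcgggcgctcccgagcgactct
Msmo1: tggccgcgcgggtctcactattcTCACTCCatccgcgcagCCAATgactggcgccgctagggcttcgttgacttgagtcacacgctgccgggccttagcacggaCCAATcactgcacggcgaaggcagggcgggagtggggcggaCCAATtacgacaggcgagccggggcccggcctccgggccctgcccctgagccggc
Idi1: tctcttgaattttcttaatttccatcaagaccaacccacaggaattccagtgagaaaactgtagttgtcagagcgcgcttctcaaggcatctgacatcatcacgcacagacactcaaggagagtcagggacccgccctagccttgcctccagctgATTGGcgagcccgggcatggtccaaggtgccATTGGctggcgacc
Hmgcs1 holds TCACCCC at bases 137 to 131 and the reverse of CCAAT at bases 176 to 172 and 45 to 41 before its start. Msmo1 holds TCACTCC and 3 CCAAT matches, and Idi1 holds 2 reverse CCAAT matches and no TCACNCC. No marked match overlapped another. CCAAT was found in 12 of 17 promoters of the list (70.6%), against 33.6% of those of tested genes, and TCACNCC in 3 of 17 (17.6%) against 11.4%. The AP-1 letters TGANTCA, also searched on both strands, gave the last set of matches: the motif was found in 1 of 17 sterol, 2 of 19 hypoxia, 1 of 19 collagen and 0 of 20 glycolysis promoters, against 3.31% of those of tested genes.

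Lipid handling genes were more mixed, with 8 of 15 higher and 4 lower (median 0.32). Pparg, the nuclear receptor of fat storage, rose from 738, 537 and 576 to 2781, 3287 and 2771 normalised counts, and Lpl, lipoprotein lipase, from 68.6, 78.8 and 97.8 to 414, 403 and 382. Abca1, which exports cholesterol, fell from 1773, 2113 and 1817 to 627, 611 and 458. The groups did not overlap for these 3 genes. Lpl reached the level for testing only in the 2nd relapse group (mean 399.6), so the filter itself favours its rise.

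Redox and stress genes changed in part. Of 30 NRF2 target and glutathione genes 13 rose and 11 fell (median -0.039): the cystine importer Slc7a11 rose from 362, 225 and 270 to 1267, 1669 and 1617 counts, glutathione reductase Gsr from 7451, 6241 and 6704 to 18090, 18940 and 21200, and the glutathione peroxidase Gpx2 fell from 643, 626 and 842 to 31.4, 45.6 and 29.1. Atf4, the factor of the integrated stress response, rose from 2852, 2873 and 3075 to 10450, 10590 and 11120 (3.65-fold), with its targets Psat1 (0.98 log2 units) and Asns (0.69). The chaperone Hspa5, a target of the unfolded protein response, fell by 0.50, and over that list 13 of 25 rose and 4 fell (median 0.18). Immediate-early and dissociation stress genes, which rise when tissue is taken apart, were higher in 15 of 26 cases and lower in 4 (median 0.37). Among them Hspb1 went from 594, 522 and 787 to 2946, 2580 and 2011 counts and Atf3 from 510, 562 and 745 to 1285, 1345 and 2217, whereas Fos (9411 and 10110 mean counts, with a log2 difference of 0.063 that turned to -0.268 under quantile normalisation) was not called. Hspa1a and Hspa1b, near-identical chaperone copies whose separate values are uncertain, were 3.69-fold and 4.44-fold higher. The part of handling in the heat shock values was not tested.

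Growth and respiration genes rose more often than they fell, as did tested genes above the median level of expression. Of those 5596 genes 2500 rose and 1200 fell (median 0.1), and of the 5597 at the lower level 1335 rose and 1932 fell. Normalised counts summed to 21.6 to 22.2 M in the 1st and 25.3 to 25.7 M in the 2nd relapse libraries. The part of expression level in the growth and respiration lists was not tested. Ribosome biogenesis and MYC-related genes rose in 20 of 30 cases and fell in 5 (median 0.33), with Ncl, nucleolin, at 4812, 5032 and 4602 normalised counts in 1st and 10210, 10030 and 10250 in 2nd relapse. Bop1, a ribosome assembly factor, rose by 0.85 log2 units and the long non-coding RNA Pvt1 fell by 0.87. Nuclear-encoded respiratory chain genes rose in 19 of 34 cases and fell in 8 (median 0.16), led by Cyc1, cytochrome c1, which went from 1325, 1174 and 1279 to 3311, 3541 and 3195 counts. Of 13 mitochondrially encoded genes 6 rose and 1 fell (median 0.39). Mitosis genes had few calls: 13 of 36 DNA replication genes rose and 3 fell (median 0.089), and 7 of 34 mitosis genes rose and 4 fell (median 0.019), against 34.3% and 28.0% over all genes. Rrm2, a subunit of ribonucleotide reductase, stood apart at 1144, 939 and 967 and 2564, 2434 and 2920 counts, and the proliferation marker Mki67 was not called at 5081 and 5471 mean counts (0.094, and -0.121 under quantile normalisation). Among p53 and arrest targets 6 of 17 rose and 6 fell, with 70.6% called against 62.2% over all genes. Cdkn1a rose from 229, 188 and 159 to 491, 571 and 600, and Trp53, with 134, 157 and 163 and 116, 116 and 85.4 counts, was called lower at -0.16, a direction that quantile normalisation turned to 0.005 and a call lost without 2nd relapse replicate 3 (-0.122).

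The IFNG pathway itself differed in a few members. Of 17 tested receptor, JAK and STAT genes 3 rose and 4 fell (median -0.024), with 41.2% called against 62.2% over all genes. Jak2, the kinase bound to the IFNG receptor, rose from 2769, 2631 and 2722 to 5047, 5599 and 5707 normalised counts (log2 0.88, SE 0.051, adjusted p = 3.07e-09). Irf1, an interferon-induced transcription factor, fell from 1528, 1535 and 1426 to 1044, 917 and 784 (log2 -0.51, SE 0.065, adjusted p = 9.16e-06). The groups did not overlap for either. Ifngr1 went from 2771, 2806 and 3230 to 2519, 2324 and 2570 counts (-0.21 log2 units), a call lost without 1st relapse replicate 3 (-0.146) or 2nd relapse replicate 2 (-0.17). Jak1 (2871 and 3099 mean counts, with a direction that quantile normalisation turned to -0.063) and Ifngr2 (1506 and 1291) were not called, although quantile normalisation called Ifngr2 lower, at -0.243. The parental Irf1 mean was 1210.

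Interferon-induced effectors and antigen presentation moved unevenly. Of 10 tested guanylate-binding and immunity-related GTPases 5 fell and 0 rose (median -0.36), with 50.0% called against 62.2% over all genes. In 2 of them the groups did not overlap, against 68.1% of all genes. The number called was 3 without 1st relapse replicate 3 or without 2nd relapse replicate 3. The similar copies Tgtp1 and Tgtp2 lost their calls in those fits and under quantile normalisation (-0.311 and -0.325), as did Tgtp1 without replicate 1 of either group (-0.488 and -0.497). Tgtp1 and Tgtp2 reached the level for testing only in the 1st relapse group (means 179.6 and 226.4), so the filter itself favours a fall in them. Iigp1 went from 385, 187 and 843 to 12.7, 88.5 and 3.25 normalised counts, with no overlap between groups. In the MHC class I list 7 of 17 fell and 3 rose (median -0.19), with 58.8% called against 62.2% over all genes. B2m, the invariant light chain, fell from 3939, 3803 and 4758 to 2487, 3325 and 1741 (-0.65 log2 units, SE 0.14, adjusted p = 0.00122), and Tapbp, which loads peptides, from 2444, 2404 and 2785 to 1634, 1650 and 1425. The heavy chain H2-K1 rose from 3275, 2414 and 4294 to 6514, 8464 and 5657 (0.95, SE 0.17, adjusted p = 0.000252). The light chain and this heavy chain thus moved in opposite directions, with no overlap between groups for B2m, Tapbp or H2-K1. H2-D1 had 4133, 2912 and 4841 and 5508, 6148 and 4789 counts (0.44), a call lost under quantile normalisation (0.231), without 1st relapse replicate 2 (0.258) and without 2nd relapse replicate 2 (0.359). The peptide transporter Tap1 had 277, 162 and 392 and 144, 228 and 51.4 counts (-0.39), and its call was lost in 8 of 14 alternatives, among them the leaving out of 1st relapse replicates 1 (-0.378) or 3 (-0.261) and of 2nd relapse replicates 1 (-0.415) or 3 (-0.218). MHC class I genes share long stretches of sequence, so the value of each heavy chain is uncertain.

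Of 22 tested antiviral genes 9 rose and 4 fell (median 0.10), and the share called, 59.1%, was near the 62.2% over all genes. Oasl1, an oligoadenylate synthetase-like protein, went from 407, 291 and 413 to 1235, 1220 and 1158 normalised counts, Ifit3 from 37.5, 31 and 57.7 to 502, 283 and 177, and Ifitm3, which blocks virus entry, from 674, 685 and 695 down to 360, 248 and 220. None of these 3 overlapped between groups. Ifit3 reached the level for testing only in the 2nd relapse group (mean 320.6), so the filter itself favours its rise. Nucleic acid sensors fell in 6 of 11 cases and rose in 2 (median -0.33), and Tmem173, the DNA-sensing adaptor STING, went from 727, 680 and 440 to 302, 289 and 279. Among checkpoint ligands and adenosine enzymes 4 of 12 rose and 4 fell, with 66.7% called against 62.2% over all genes. Nt5e, which makes adenosine, rose from 3521, 3247 and 3733 to 5294, 6534 and 5928 and Lgals3, galectin-3, from 6024, 4797 and 5924 to 12980, 11980 and 11670. Nectin3 fell from 329, 343 and 385 to 33.4, 41.5 and 46.9. Genes below the level needed for testing included Cd274, the checkpoint ligand PD-L1, with 46.8, 57.9 and 44.3 counts in 1st and 66.9, 65.3 and 64.9 in 2nd relapse, Cxcl10 with 33.5, 21.4 and 57.5 and 92.2, 66.7 and 23, and Nlrc5, the regulator of MHC class I, with 205, 60.1 and 155 and 41.5, 86.5 and 42.9.

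Chemokine, NF-kB and death regulator genes moved in both directions, as all tested genes did (34.3% higher and 28.0% lower), while complement genes only fell or were not called. In the chemokine and cytokine list 6 of 17 rose and 7 fell. Csf1, the growth factor of macrophages, went from 718, 858 and 769 to 57.1, 50 and 61.7 normalised counts, and Cxcl5, a neutrophil attractant, from 916, 757 and 1012 to 226, 174 and 166. Il33, an epithelial alarmin, rose from 2803, 1965 and 2417 to 7904, 8081 and 7389. Complement genes fell in 9 of 13 cases and rose in 0 (median -0.82), with C4b going from 1307, 1221 and 1992 to 34.2, 66.9 and 26.7 and C3 from 1642, 2001 and 2604 to 160, 420 and 186. Fibroblast markers fell in the same libraries, and their part in the complement values was not tested. Clu, clusterin, dominated that list's summed level and was not called, at 154700 and 176100 mean counts (log2 difference 0.18, -0.186 under quantile normalisation). NF-kB genes rose in 7 and fell in 7 of 21 cases, with Tnfaip2 3.39-fold higher. Of 22 death receptor and apoptosis genes 9 rose and 7 fell, among them the BH3-only gene Pmaip1 (611, 602 and 700 and 1790, 1913 and 1830 counts) and the pore-forming Gsdmd (1367, 1193 and 1561 and 3032, 2870 and 2739), both higher, and Bcl2 (1595, 1452 and 1451 and 906, 728 and 752), lower.

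Smaller families were mixed. S100 proteins and annexins rose in 14 of 17 cases and fell in 2 (median 0.54), with S100a4 and the membrane-binding Anxa6 (1722, 2036 and 1862 and 230, 233 and 171 counts) the members that fell. Imprinted genes fell in 8 of 12 cases and rose in 1 (median -0.87), against 28.0% lower and 34.3% higher over all genes. Among them Meg3 reached the level for testing only in the 1st relapse group (mean 426.8), so the filter itself favours its fall. Rian and Meg3, non-coding RNAs of the same imprinted cluster, went from 900, 839 and 633 to 22.7, 46.6 and 30.4 and from 405, 510 and 365 to 12.1, 24.7 and 6.2 normalised counts, and Sgce from 373, 428 and 397 to 3.99, 8.78 and 7.11. In these genes every 2nd relapse library lay below every 1st relapse library, and fibroblast markers fell in the same libraries, a part that was not tested. In the retinoid list 3 of 10 rose and 4 fell, with Aldh1a3, which makes retinoic acid, at 8887, 7860 and 9568 in 1st and 21110, 21300 and 18600 in 2nd relapse. In the prostaglandin list 4 of 11 rose and 2 fell. DNA methylation and Polycomb genes rose in 8 and fell in 3 of 21 cases, replication-dependent histones in 6 and 2 of 22, and no Hox cluster gene was expressed highly enough to be tested. The shares called in the retinoid, prostaglandin, DNA methylation and histone lists were 70.0%, 54.5%, 52.4% and 36.4%, against 62.2% over all genes.

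**Figure D4:**
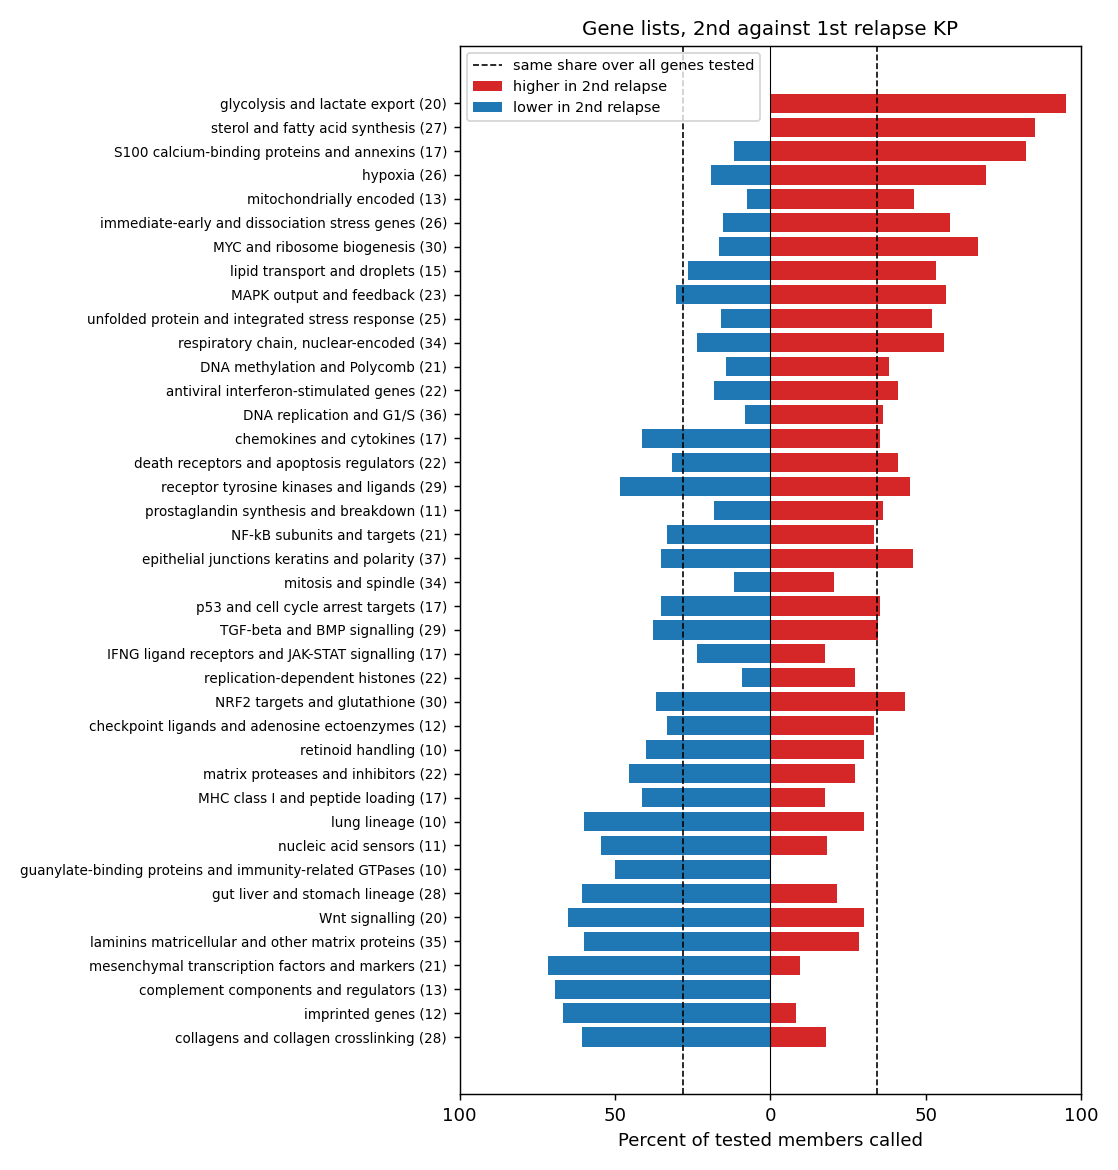
For each gene list with at least 10 tested members (number in brackets), the percent of members called higher (red, right) and lower (blue, left) in 2nd relapse tumours, ordered by median log2 difference. The dashed lines are the shares over all tested genes, 34.3% higher and 28.0% lower, and the glycolysis list, with 19 of 20 higher, stands at the top.

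Differences between the relapses were not spread evenly over the genome. Of 329 tested X chromosome genes 255 (77.5%) fell and 29 (8.81%) rose, with a median of -0.36, against 28.0% and 34.3% over all genes. Chromosome 19 genes rose in 287 of 406 cases (70.7%, median 0.29) and chromosome 15 genes in 296 of 469 (63.1%, median 0.31). Chromosomes 1 (58.4% higher) and 14 (57.4% higher) followed, while chromosomes 9 (50.5%) and 2 (47.3%) had the highest shares of lower genes after the X. Against the parental mean, the X chromosome median was -0.318, -0.319 and -0.283 in the 2nd relapse libraries and 0.071, 0.05 and 0.045 in the 1st relapse libraries. The chromosome 15 median was 0.287, 0.306 and 0.306 in 2nd and -0.079, -0.102 and -0.075 in 1st relapse. So the libraries of each group lay close together and the groups apart. Late relapse libraries had X chromosome medians of -0.191, -0.156 and -0.196, with chromosome 15 medians from -0.023 to 0. Xist, the RNA that coats the inactive X chromosome, was not called, at 23890, 19250 and 20270 normalised counts in 1st and 18140, 19160 and 17950 in 2nd relapse, with every 2nd relapse value below every 1st relapse value. Its log2 difference was -0.19, and quantile normalisation gave -0.608 and called it lower (adjusted p = 5.72e-05). The X chromosome shift was seen at both levels of expression: among its genes above the median level 111 of 143 fell, and among those below it 144 of 186. Chromosome 15 had medians of 0.529 at the higher and 0.191 at the lower level, and chromosome 19 of 0.367 and 0.18. Over all genes these medians were 0.1 and -0.041. The part of expression level in the chromosome values was not tested.

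**Figure D5:**
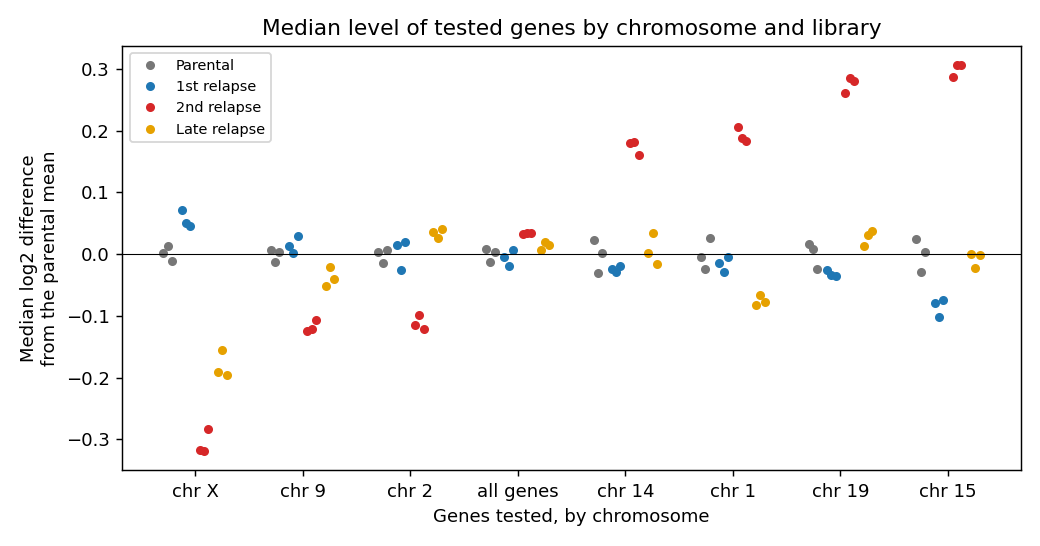
Median log2 difference from the parental mean over the tested genes of 7 chromosomes and of all genes (y axis), 1 point per library, in parental, 1st, 2nd and late relapse tumours. The 2nd relapse points lie lowest on the X chromosome, between -0.319 and -0.283, and highest on chromosome 15, between 0.287 and 0.306, while their medians over all genes lie between 0.032 and 0.034.

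In windows of 10 Mb holding at least 10 tested genes, 249 in all, the 3 highest medians were on chromosome 15 and the 3 lowest on the X chromosome. The chromosome 15 windows at 10 to 20, 20 to 30 and 70 to 80 Mb had medians of 0.69, 0.66 and 0.65, and in the last of these 100 of 115 genes rose and 4 fell. Against parental tumours that window's median was -0.023 in 1st and 0.617 in 2nd relapse. Lgals2 (chr15:78850860-78855529), Bop1 (chr15:76452989-76477277) and Cyc1 (chr15:76343523-76346260) lie in that window, and Anxa13 (chr15:58341471-58389244), Myc (chr15:61985391-61990374) and Ndrg1 (chr15:66929318-66969640) elsewhere on the chromosome. The X chromosome windows at 40 to 50, 20 to 30 and 30 to 40 Mb had medians of -0.61, -0.60 and -0.54. In the first of these 15 of 15 genes fell, and in the second 14 of 14.

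RNA from satellite-like repeats also differed, in 11 predicted genes chosen after their values were seen. Together they held 0.253%, 0.611% and 0.0925% of normalised counts in the 1st relapse libraries and 1.61%, 2.23% and 1.83% in the 2nd relapse libraries. The groups did not overlap. Parental libraries held 0.291% to 1.32% and late relapse libraries 1.86% to 3.05%, so the share also varied among libraries of a group. Depth was higher in the 2nd relapse libraries too, and its part in these values was not tested.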

How the data were processed

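The values in the KP table are on a log2 scale after the variance stabilising transformation that its title names, deposited by the authors for 36040 genes. Tools listed in the submitters' processing notes, without their roles, are Salmon 1.8.0, DESeq2 1.34.0 and cutadapt 2.9, with the builds GRCm38 and mm10. Salmon estimates counts, and a transformation of this kind compresses differences of low genes, so log2 differences of such genes are smaller than those of the counts. Normalised counts were calculated back from the deposited log2 values by inverting the transformation's formula, with its parameter taken from the lowest deposited value. In the 15 KP libraries 69% to 77% of low values came out within 0.15 of a whole read, against 30% by chance, so no count test was used. Depth was estimated from the spacing of those low values.

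Genes were tested where at least 1 of the 5 KP groups had a mean of 1 log2 unit or more above the lowest deposited value of 8.172, about 144.2 normalised counts, which kept 31.06% of genes and 99.04% of counts. All 15 KP libraries entered 1 limma (3.58.1, R 4.3.3) fit, with Benjamini-Hochberg adjustment over all tested genes at 0.05. An exact test of 3 against 3 libraries cannot go below 0.1. Symbols came from GENCODE vM21, with 85 identifiers unmatched. The steps were tested on simulated data with 200 changed genes. Members and gene lists were chosen with earlier results of these data known. Genes named are the 15 highest and 15 lowest with no overlap between groups, up to 4 members per list with the greatest differences, and 20 fixed genes. A few of these are not reported here. Another 62 list members were named after their values were seen. Alternatives changed the filter, scaling, pseudocount, libraries fitted, weights, the replicate block and each replicate.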

Additional observations from a re-analysis of the deposited data

How the results depend on the processing

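Of the alternatives, 2 moved the number of called genes by more than 1.5 times. A stricter filter of 3 log2 units left 3347 genes to test and gave 2452 calls instead of 6967, of which 69.0% were higher instead of 55.0%. A minimum difference of 1 log2 unit gave 583. For 1st relapse against parental the same settings gave 2001 and 394 instead of 5697, and for 2nd relapse against parental 2515 and 753 instead of 7367. Leaving out each replicate in turn gave 6452 to 6573, 4905 to 5296 and 6799 to 6997 calls for these 3 comparisons. With the replicate block 6890 genes were called. Deviations of libraries with the same replicate number had correlations of -0.053, -0.001 and -0.015, so they share only a number. Quantile normalisation turned the direction of Lcp1 (0.062), Jak1 (-0.063), Trp53 (0.005), Vim (-0.056), Acly (-0.154), Fos (-0.268), Clu (-0.186), Fasn (-0.242), Mki67 (-0.121), Col4a1 (-0.199) and Col4a2 (-0.125), and the cause was not tested. Of these, Trp53 and Vim were called as reported, and Fasn, Acly and Col4a1 were called lower under that setting. Median centring turned Bpgm (-0.003), and leaving out each replicate in turn gave -0.007 to 0.018 for Bpgm, -0.151 to 0.256 for Fos and -0.113 to 0.02 for Acaca, none of which was called. Of the other values for single genes, 3686 kept direction and side of the threshold, 39 lost their call and 16 gained one. Trp53 lost its call without 2nd relapse replicate 3 (-0.122). List medians were less stable: 588 values stayed within the spread between replicates and 128 moved beyond it, 37 of them under the stricter filter, 26 without a filter, 24 under quantile normalisation and 24 on back-calculated counts. The numbers of list members called moved in 48 cases, 32 under the stricter filter. Without a filter all 36040 genes were tested and 10153 called. What depth limits was not tested.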
